A study of Mus musculus with 4 samples.

Results

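Neutrophils of the spinal cord (SC) in experimental autoimmune encephalomyelitis (EAE) were followed here down to barcodes with little RNA. A barcode marks the RNA of 1 droplet, and a unique molecular identifier (UMI) marks 1 captured transcript, so that PCR copies are counted once. A barcode was taken as a neutrophil when it held at least 500 UMIs with under 10% from mitochondrial genes, at least 3 UMIs of Csf3r, Cxcr2, Retnlg and Mmp9 together, and at least 10 of S100a8 and S100a9 together. It was also limited to at most 1 UMI of the endothelial genes Cldn5, Cdh5, Egfl7 and Esam, at most 1 of the T cell genes Cd3e, Cd3d, Cd3g and Lat, and at most 3 of C1qa, C1qb and C1qc. Members were thus chosen by the measured UMIs of these genes, and the limits were met by 1021 of the 33616 barcodes of at least 500 UMIs and under 10% mitochondrial UMIs, with 85 of 8227 mIgG1 barcodes, 238 of 10091 Ang2 Ab barcodes, 259 of 8718 Ctrl barcodes and 439 of 6580 EC-Ang2 barcodes.

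The libraries came from mice immunized with MOG35-55 peptide in complete Freund's adjuvant and given pertussis toxin, at a lower dose in the overexpression pair, and CD45+ leukocytes and CD31+ endothelial cells (ECs) sorted in equal numbers from their SCs were captured together with the 10x Chromium 3′ chemistry. The mIgG1 and Ang2 Ab mice were wild-type C57Bl/6JOlaHsd animals aged 15 weeks that received an isotype control antibody or an antibody blocking angiopoietin 2 (Ang2) from the day of immunization and were taken at 14 days post immunization (dpi). They form the blockade pair. The EC-Ang2 mice carried the VE-cadherin-tTA driver, active in ECs, together with the Tet-OS-Ang2 transgene, and the Ctrl mice were littermates with a single transgene. These C57Bl/6JCrl animals were aged 12 to 14 weeks, had their dams on doxycycline until birth, and were taken at 12 dpi as the overexpression pair. Each condition was 1 library, the number of mice in it was not given in the sources used here, and strain, age, day, toxin dose and library cannot be told apart between the pairs. No difference between conditions could therefore be tested. The 95% intervals given for them (exact, Poisson for levels and binomial for shares) reflect counting error alone and are too narrow for genes whose UMIs gather in few cells.

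Neutrophils are short-lived granulocytes that leave the bone marrow under the control of the chemokine receptor Cxcr2 and the growth factor receptor Csf3r. Their granule proteins are made in a fixed order, with primary granule genes such as Mpo and Elane in promyelocytes, secondary granule genes such as Ngp, Ltf and Camp in myelocytes and metamyelocytes, and gelatinase granule genes such as Mmp9 later. Mature cells have largely stopped making granule transcripts and hold less RNA than most leukocytes. In EAE, neutrophils enter the SC early, and they are a source of interleukin 1β and of chemokines that recruit further leukocytes.

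The genes that set immature cells apart here are Ngp (neutrophilic granule protein), Ltf (lactotransferrin) and Camp (cathelicidin), which lie within 1.2 Mb of chromosome 9 in GRCm38. Their spans are 109847379 to 109849617 on the minus strand for Camp, 110419747 to 110423012 on the plus strand for Ngp and 111019271 to 111042767 on the plus strand for Ltf. The bases before their start sites, shown because most transcripts of these genes were held by 25 cells, are the RefSeq promoters of GRCm38.p6, cut to the part that also lies before the start in the GENCODE annotation. They are chr9:110419558-110419746 for Ngp, chr9:111019042-111019270 for Ltf and chr9:109849618-109849706 for Camp, each written 5′ to 3′ on the strand of its gene, with capitals for matches on either strand to TTGCNNAA, a form of the C/EBP motif, or GAGGAA, a core that PU.1 and related factors recognize.
Ngp: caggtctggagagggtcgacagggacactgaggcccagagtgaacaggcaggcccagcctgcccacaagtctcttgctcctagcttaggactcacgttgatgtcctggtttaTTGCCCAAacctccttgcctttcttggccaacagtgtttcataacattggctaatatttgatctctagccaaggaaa
Ltf: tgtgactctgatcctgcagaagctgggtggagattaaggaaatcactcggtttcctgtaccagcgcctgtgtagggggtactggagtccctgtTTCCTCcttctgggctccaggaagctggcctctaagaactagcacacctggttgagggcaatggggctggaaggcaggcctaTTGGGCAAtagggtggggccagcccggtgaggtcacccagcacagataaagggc
Camp: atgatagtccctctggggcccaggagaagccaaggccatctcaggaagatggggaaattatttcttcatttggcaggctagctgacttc
Within 250 bases before the RefSeq start, TTGCNNAA was found at 138 and 11 bases before the start of Ngp, of which the printed part holds the first, and at 75 bases before that of Ltf, with no match for Camp. GAGGAA was found for Ltf, at 157 bases before the start, and no match overlapped another. Over all 32851 promoters of this length, 9.56% held TTGCNNAA and 23.3% held GAGGAA, and of the 17 genes of the late granule and mature list with a promoter, 3 and 7 did.

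Most neutrophils lay under the calling threshold, the UMI number from which early Cell Ranger versions take a barcode for a cell. For the 10000 cells targeted per library it was 2665, 2140, 2275 and 2623 UMIs (in the order mIgG1, Ang2 Ab, Ctrl, EC-Ang2, which is kept wherever 4 values are given), and 711 of the 1021 neutrophils fell below it. The mIgG1 share was 89.4% (76 of 85 cells, 80.8% to 95.04%), the Ang2 Ab share 76.9% (183 of 238, 71.0% to 82.1%), the Ctrl share 51.7% (134 of 259, 45.5% to 58.0%) and the EC-Ang2 share 72.4% (318 of 439, 68.0% to 76.6%). Monocytes, the other blood-derived myeloid cells compared here, were taken as barcodes with at least 5 UMIs of Ly6c2, Plac8 and Ccr2, at most 1 of Csf3r, Cxcr2, Retnlg and Mmp9, and otherwise the same limits. Of these only 5.52%, 10.3%, 9.43% and 7.59% lay under the threshold in the same order of libraries, below the share of neutrophils in each of the 4 libraries. Both rules set minimums in UMIs for genes of unlike abundance. The part of these minimums in this difference, and in the UMI medians below, was not tested. Of all immune barcodes, neutrophils included, 22.1%, 31.2%, 39.7% and 29.6% lay under it, a share nearest to that of neutrophils in Ctrl. Endothelial barcodes lay under it in 27.0%, 25.03%, 13.2% and 19.1% of cases, and T cell-like barcodes in 33.6%, 19.7%, 6.88% and 12.5%.

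The median neutrophil held 1357 UMIs and 609 genes in mIgG1, 1439 UMIs and 633.5 genes in Ang2 Ab, 2255 UMIs and 739 genes in Ctrl, and 2094 UMIs and 778 genes in EC-Ang2, and single cells ranged from 544 to 15689 UMIs. The median monocyte held 5117, 4599, 6983.5 and 6993 UMIs. Median mitochondrial shares were 0.587%, 0.466%, 0.476% and 0.510% in neutrophils and 1.91%, 1.77%, 1.46% and 1.64% in monocytes. The neutrophils of a library summed to 145938, 466872, 758013 and 1151630 UMIs, out of 66631583, 57954609, 52084739 and 52796061 in the whole libraries, so that mIgG1 gives the least certain values throughout.

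**Figure D1:**
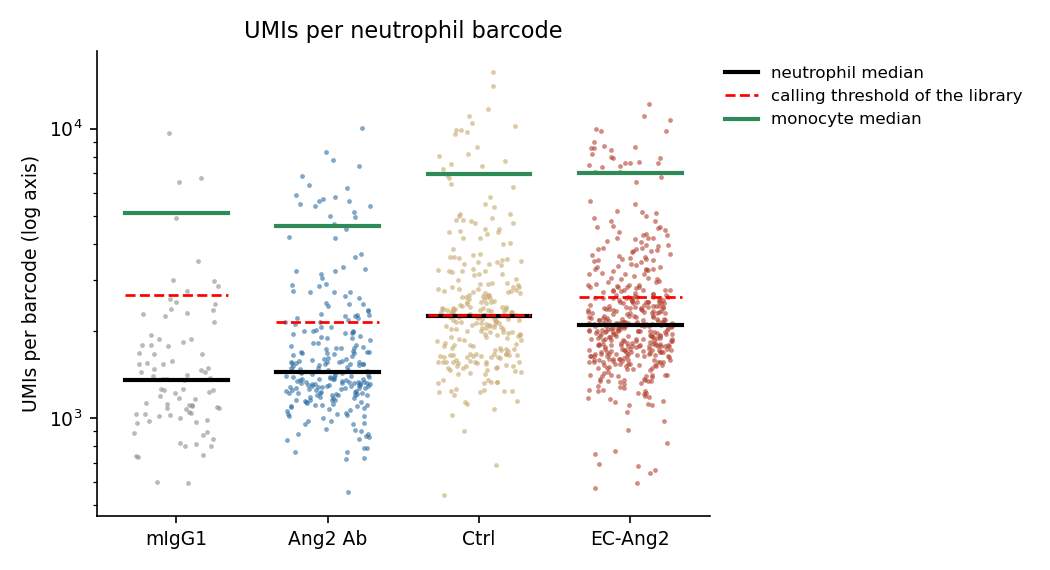
UMIs per neutrophil barcode in each library on a log axis, 1 point per barcode, with lines for the neutrophil median (black), the calling threshold of the library (red, dashed) and the monocyte median (green). The neutrophil median lies below the monocyte median in all 4 libraries, and in mIgG1 76 of 85 points lie under the threshold.

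Markers of B cells, T cells, basophils and mast cells were at or near 0, whereas those of monocytes, macrophages and MHC class II cells were not. No UMI of the B cell genes Cd79a, Cd79b and Ms4a1 was found in any library, and Mcpt8, Cpa3 and Ms4a2 of basophils and mast cells were at 0 as well, with Gata2 of the same list at 0, 1, 8 and 1 UMIs. T cell genes summed to 5, 12, 12 and 22 UMIs, with Cd4 at 0, but Cd3e, Cd3d, Cd3g and Lat of this list were limited by the rule itself. The eosinophil genes Prg2, Epx and Il5ra were at 0 and Ccr3 at 0, 0, 2 and 4 UMIs, whereas Siglecf, a lectin receptor used to mark eosinophils, was found at 48.0, 30.0, 25.1 and 14.8 UMIs per 1000000 UMIs of the cells (CPM), and the eosinophil list at 0.517 to 3.15 CPM in monocytes. Endothelial genes summed to 528, 525, 400 and 362 CPM. Set against their level in empty droplets of 10 to 100 UMIs, this gives a share of RNA from other cells (free RNA) of 6.61%, 6.08%, 4.59% and 5.08% of neutrophil UMIs. Monocyte markers were clearly present at 3179, 4277, 4999 and 5759 CPM against 6660, 8626, 12759 and 10061 CPM in monocytes, with Plac8 the most abundant of the list. Macrophage markers, led by Apoe, summed to 5927, 1908, 1641 and 1406 CPM, and genes of MHC class II and dendritic cells, led by Cd74, to 6037, 3729, 2595 and 1408 CPM. Microglial markers summed to 432, 308, 278 and 192 CPM, oligodendrocyte markers, led by Mbp and with Mog at 0, to 308, 171, 393 and 137 CPM, mural cell markers to 13.7, 19.3, 30.3 and 14.8 CPM, and hemoglobin genes to 0, 1, 422 and 29 UMIs.

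Libraries shared some barcode sequences. Of the 1021 neutrophils, 42 had a barcode that also held at least 500 UMIs in another library (4, 10, 8 and 20 by library), and 1 sequence met the neutrophil limits in both Ang2 Ab and Ctrl. Scrublet, which scores barcodes by their likeness to simulated doublets, marked 3, 10, 12 and 14 neutrophils at a rate of 0.8% per 1000 barcodes, and they were kept. Without the shared barcodes, or without those that Scrublet marked, each of the shares and share ratios below stayed within its interval and each count of genes for the condition pairs within 1.5 times.

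The genes of the rule are described and not tested. Csf3r was at 980, 728, 638.5 and 764 CPM and was found in 80.0%, 76.9%, 80.7% and 85.6% of cells. Cxcr2 was at 610, 499.1, 650 and 790 CPM. Retnlg, which codes for resistin-like gamma, was at 4180, 2519, 7173 and 4191 CPM and in 47.1%, 45.8%, 74.1% and 72.9% of cells, so that Ctrl was highest in level and the blockade pair lowest in share of cells. In cells without a UMI of Ngp, Ltf or Camp, the immature granule genes, Retnlg was at 1596, 1152, 3811 and 3750 CPM. In Ctrl, 13 cells with 5 or more UMIs of these 3 genes held 2506 Retnlg UMIs. The shares of cells were not adjusted for depth, which was lowest in the blockade pair. Mmp9, the gelatinase, was at 713, 700, 485.5 and 373 CPM. S100a8, an alarmin subunit, was at 47445, 44533, 55730 and 46124 CPM, and S100a9, its partner, at 27402, 28687, 45228 and 34483 CPM.

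At 3 UMIs of Csf3r, Cxcr2, Retnlg and Mmp9 there were 178 cells, and at 2 UMIs, just outside, 182. Between libraries, Il1r2 ranged from 1276 to 2066 CPM inside this limit and from 1262 to 3393 CPM outside it. For S100a8 and S100a9, 31 cells held 10 to 14 UMIs and 57 held 5 to 9. The C1q limit had 152 cells at 2 or 3 UMIs inside and 29 at 4 or 5 outside, the endothelial limit 291 at 1 and 69 at 2, and the T cell limit 31 at 1 and 2 at 2. On the UMI minimum, 5 neutrophils held fewer than 600 UMIs and 3 barcodes outside held 400 or more.

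In both pairs, the treated or transgenic library held a higher share of neutrophils than its control. Of all barcodes, neutrophils made up 1.03% (0.826% to 1.28%) and 2.36% (2.07% to 2.67%) for mIgG1 and Ang2 Ab, and 2.97% (2.62% to 3.35%) and 6.67% (6.08% to 7.30%) for Ctrl and EC-Ang2. The ratio was 2.28 with Ang2 blockade and 2.25 with Ang2 overexpression. Because the sort fixed the balance of immune cells and ECs, the share was also taken of the 2770, 3675, 3339 and 2790 immune barcodes, which gave 3.07%, 6.48%, 7.76% and 15.7%, and ratios of 2.11 and 2.03. Of all barcodes, the intervals of Ang2 Ab and Ctrl overlapped, and those of the other libraries did not.

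The UMI minimum changed these ratios. Among barcodes at or above the calling threshold, neutrophils made up 0.139%, 0.758%, 1.96% and 2.45%, a ratio of 5.43 for blockade and 1.24 for overexpression. Among immune barcodes at or above the threshold they were 0.417%, 2.18%, 6.20% and 6.16%, with overlapping intervals for Ctrl and EC-Ang2, and among immune barcodes under it they were 12.4%, 16.0%, 10.1% and 38.5%. The larger difference between EC-Ang2 and Ctrl was thus found among barcodes under the count. Depth and the count itself also differ between the libraries, and their part in these ratios was not tested.

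**Figure D2:**
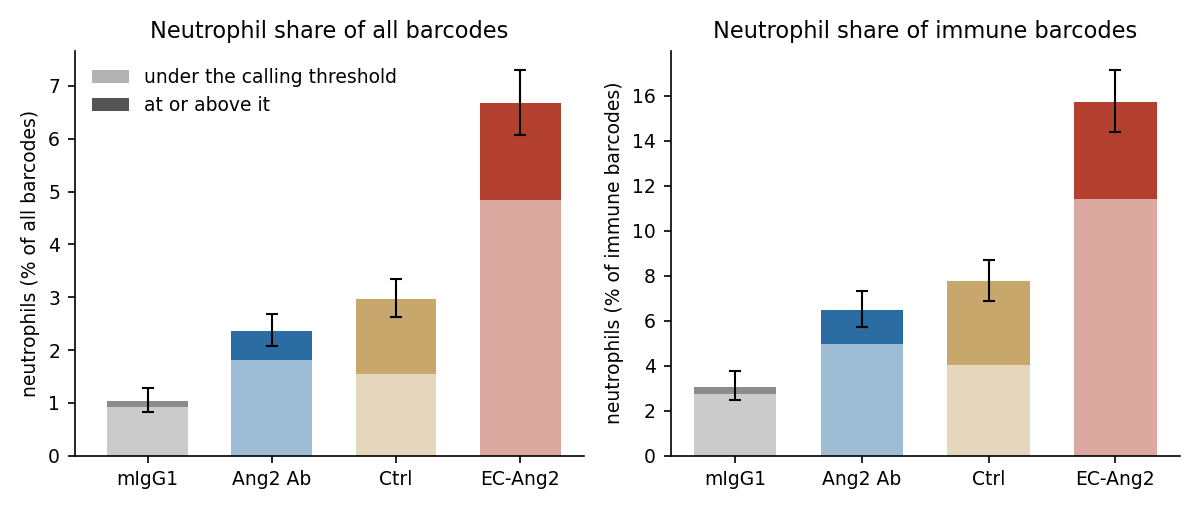
Neutrophils as a percentage of all barcodes (left) and of immune barcodes (right) in each library, with exact binomial 95% intervals as bars and the pale part of each column for cells under the calling threshold. EC-Ang2 is highest at 6.67% of all and 15.7% of immune barcodes, and mIgG1 lowest at 1.03% and 3.07%.

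Transcripts of the immature granule genes were held by a few cells. Ngp, Ltf and Camp together gave 34, 978, 837 and 1151 UMIs for mIgG1, Ang2 Ab, Ctrl and EC-Ang2, or 233 CPM (161 to 326), 2095 CPM (1966 to 2230), 1104 CPM (1031 to 1182) and 999.5 CPM (943 to 1059). The level was thus lowest in mIgG1 and highest in Ang2 Ab. At least 1 UMI was found in 9, 15, 50 and 47 cells, but 5 or more in only 2, 5, 13 and 5, which held 79.4%, 98.7%, 94.4% and 95.3% of these UMIs. A single cell held 52.9%, 49.5%, 26.9% and 86.8% of them. Without the 25 cells of 5 or more UMIs, the level was 49.5, 29.7, 67.0 and 47.8 CPM, and Ang2 Ab went from the highest to the lowest library.

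The richest granule cell was an EC-Ang2 barcode with 574 UMIs of Ngp, 145 of Ltf and 280 of Camp among 8615. The next, in Ang2 Ab, held 230, 88 and 166 among 5131. Ngp alone was at 185, 887, 836 and 583 CPM, Ltf at 27.4, 407, 133 and 165 CPM, and Camp at 20.6, 801, 135 and 252 CPM. Of the 1021 cells, 42 held Ngp, 81 held Ltf and 25 held Camp, 19 held at least 2 of the genes and 8 held all 3. None of the 25 cells of 5 or more UMIs was marked by Scrublet, no monocyte reached 5, and 1 endothelial barcode, in EC-Ang2, did. Thinned to 500 UMIs per barcode, 5.88%, 2.52%, 8.11% and 3.42% of neutrophils held any of the 3 genes (10.6%, 6.30%, 19.3% and 10.7% unthinned), against 0.0655%, 0.0893%, 0.471% and 0.0701% of endothelial barcodes, which should lack them, and 0%, 0.245%, 0.943% and 0.379% of monocytes.

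The 25 cells with 5 or more granule UMIs also differed in genes outside the rule, which is given as a description of pooled levels with no test, since the number of such cells reached 10 in Ctrl alone. Their median was 4175 UMIs, against 2295.5 in the 96 cells with 1 to 4 granule UMIs and 1880.5 in the 900 with 0. Lcn2, the siderophore-binding lipocalin of secondary granules, was at 8832 CPM against 2031 and 1652 in the same order of classes. Cd177, a surface protein stored in secondary granules, was at 824 against 64.0 and 61.5 CPM, and Mmp8, the neutrophil collagenase, at 1944 against 352 and 330 CPM. Of the same list, Hp was at 3305 against 1558 and 1961 CPM, whereas Chil3, at 1594 against 1547 and 2566 CPM, was below the cells with 0. Ly6g, the surface antigen of mouse neutrophils, was at 726 against 188.5 and 53.1 CPM, and Serpinb1a, an inhibitor of neutrophil proteases, at 287 against 3.56 and 7.04 CPM. In the other direction, Il1b was at 1469 CPM against 7195 and 8581, Ccl4 at 869 against 5356 and 4149, and the decoy receptor gene Il1r2 at 1138 against 1800 and 2473 CPM.

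Genes of still earlier stages were near 0 in all libraries. Elane and Ms4a3 gave no UMI, Mpo 1 and Ctsg 2, while Prtn3 was at 54.8, 17.1, 34.3 and 23.4 CPM. In the 25 granule-rich cells the proliferation gene Mki67 was at 0. Cell cycle genes summed to 7, 11, 18 and 42 UMIs, of which the expected free RNA was 38.9%, 78.9%, 96.3% and 46.5%.

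**Figure D3:**
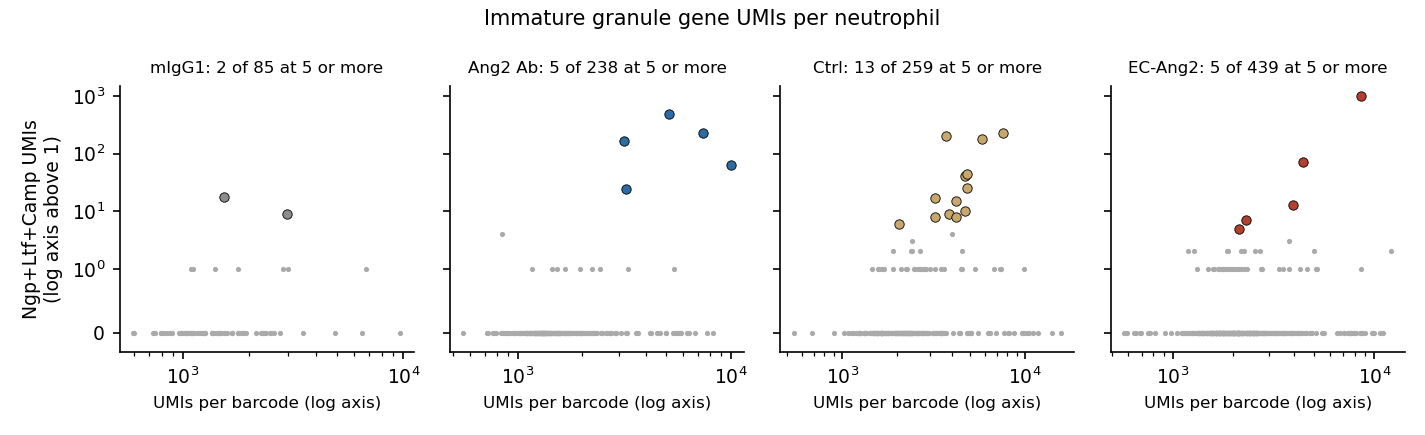
Ngp, Ltf and Camp UMIs per neutrophil (log axis above 1) against its total UMIs (log axis), 1 panel per library and 1 point per barcode, with cells of 5 or more such UMIs in color. These are 2, 5, 13 and 5 cells, and the highest hold 18, 484, 225 and 999 UMIs in mIgG1, Ang2 Ab, Ctrl and EC-Ang2.

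Of the late granule and mature list, by contrast, Il1r2 was found in most cells, whereas Ly6g was found in few. The 18 genes of this list summed to 25408, 23675, 31808 and 27345 CPM, with all 18 found in each library. Il1r2 was at 2439, 1814, 2154 and 2661 CPM and in 87.1%, 77.7%, 91.5% and 92.7% of cells. G0s2, a regulator of lipid breakdown, was at 2419, 2527, 3347 and 3074 CPM. Hdc, which makes histamine, was at 1144, 1009, 1434 and 1162 CPM, and Mxd1, a MAX-binding repressor of growth genes, at 946, 1047, 1772 and 1480 CPM. Of these 4 genes, G0s2, Hdc and Mxd1 were highest in Ctrl and Il1r2 in EC-Ang2. Ly6g was found in only 7.06%, 4.62%, 17.4% and 8.43% of cells, at 82.2, 57.8, 193 and 53.8 CPM.

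When barcodes were thinned to 500 UMIs, the variance divided by the mean over cells, which is near 1 for counting alone, had a median of 1.16 over the genes with a mean of at least 0.1. Ranked by the lowest of the 4 libraries, it was highest for S100a8 at 20.7, 21.7, 26.5 and 16.5, followed by S100a9 at 15.4 to 16.0 and by the chemokine gene Cxcl2 at 10.1 to 14.0, Fth1 of ferritin at 10.01 to 14.99 and Retnlg at 9.68 to 14.9. S100a8, S100a9 and Retnlg are genes of the rule. Saa3, an acute phase apolipoprotein, varied from 5.15 in Ang2 Ab to 18.5 in EC-Ang2, where it exceeded S100a8 and S100a9.

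Against the 2465 monocytes, neutrophils were higher in most secondary granule, late granule and mature, and surface receptor genes. They were lower in most genes of MHC class II and macrophages. Counts were summed per library and cell type and compared within the 4 libraries by edgeR's quasi-likelihood test with the library as a block, at a Benjamini-Hochberg adjusted p under 0.05, after the genes of both rules had been left out. Of 7462 genes tested, 1724 were higher in neutrophils (23.1%) and 2167 lower (29.0%), 52.1% in either direction, with a median log2 difference of -0.16. Since these libraries are of different conditions, the test describes what the cell types share across them. With both types limited to 500 to 3000 UMIs (30, 138, 50 and 72 monocytes against 79, 208, 192 and 346 neutrophils), 455 were higher and 554 lower of 2191.

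All 3 immature granule genes were higher, at log2 differences of 9.72 ± 0.24 (SE, 4 libraries) for Ngp, 8.76 ± 0.30 for Camp and 7.43 ± 0.27 for Ltf, and so were 6 of 7 other secondary granule genes, led by Ceacam10 and Lcn2. Most Ngp, Ltf and Camp UMIs of neutrophils were held by 25 cells (79.4%, 98.7%, 94.4% and 95.3% by library). Chil3, a chitinase-like protein made by neutrophils and by monocytes, was lower by 0.83 ± 0.15. Of the 18 late granule and mature genes 17 were higher and none lower. G0s2 was at 21.4, 40.7, 87.4 and 45.7 CPM in monocytes, a difference of 6.30 ± 0.17 (adjusted p = 8.5e-25), and Il1r2 at 207, 144, 302 and 234 CPM, a difference of 3.71 ± 0.14 (adjusted p = 2.9e-21). For both genes every neutrophil library lay above every monocyte library. The stefin genes Stfa1, Stfa2l1, BC100530 and Gm5483, inhibitors of cysteine proteases, were also among the highest, with Gm5483 at 349, 503, 997 and 839 CPM against 1.62 to 22.4, but near-identical copies make the assignment of their reads uncertain. Adam8, a membrane protease, did not pass (0.07 ± 0.16).

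Surface receptors were higher for 15 of 17 genes and lower for none. Fpr1, which senses bacterial formyl peptides, differed by 4.24 ± 0.19, Trem1, an amplifier of inflammatory signals, by 3.22 ± 0.14, C5ar1, the receptor of complement C5a, by 2.45 ± 0.14, and Clec4e, a receptor of mycobacterial and damage-derived glycolipids, by 2.17 ± 0.13. Of 6 NADPH oxidase genes, which build the enzyme of the oxidative burst, 4 were higher and 1 lower. Ncf1, a cytosolic subunit, was higher by 1.85 ± 0.13 and the GTPase Rac2 by 1.90 ± 0.13, whereas Cybb, the catalytic subunit, was lower by 0.75 ± 0.13. In the adhesion list, where 11 genes gave 12 tested entries because Itgam was listed under a pair of identifiers, 5 entries were higher and 3 lower. The selectin ligand gene Selplg (1.68 ± 0.13), Icam1 (2.49 ± 0.14) and Cd44 (0.94 ± 0.13) were among the higher ones, and the integrin genes Itga4 (-0.66 ± 0.22), Itgax (-1.51 ± 0.25) and Itgb2 (-0.49 ± 0.13) were lower.

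Among cytokines and chemokines, 10 of 16 were higher and 5 lower. Il1b was at 6564, 7212, 8815 and 8209 CPM in neutrophils and at 1832, 2422, 3323 and 2928 CPM in monocytes, a difference of 1.90 ± 0.13 (adjusted p = 1.6e-14), and no library of one type overlapped the other. The neutrophil attractant Cxcl2 differed by 3.98 ± 0.15, Ccl3 by 3.76 ± 0.14, Ccl4 by 3.74 ± 0.19 and Tnf by 3.57 ± 0.19. Lower were Vegfa, Ccl2, Ccl5, Tgfb1 and Ccl6, with the angiogenic factor Vegfa lower by 2.21 ± 0.24. Alox5, the first enzyme of leukotriene synthesis, was higher by 4.84 ± 0.35.

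Interferon-stimulated genes were higher for 19 of 20, with a median of 1.59, and Iigp1 was lower. Among barcodes of 500 to 3000 UMIs, however, 7 of 19 were higher with a median of 0.37. The same limit left 11 of 15 late granule and mature genes, 13 of 17 receptors and 7 of 14 cytokines higher, the last with 4 lower. Immediate early genes were higher for 10 of 11, Fos being lower. Survival genes were higher for 8 of 11, among them Fas (2.95 ± 0.15) and Bcl2l1 (2.38 ± 0.16), and lower for 2. Of the transcription factors, Klf2 (2.96 ± 0.14), Cebpb (1.40 ± 0.13), Cebpe (1.68 ± 0.35) and Spi1 (1.26 ± 0.13) were higher and Cebpa was lower by 1.76 ± 0.28. In glycolysis and hypoxia 6 of 12 were lower and only the glucose transporter gene Slc2a3 was higher (4.24 ± 0.34).

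Genes of other cell types split by type. Of the macrophage markers 5 of 5 were lower and of MHC class II and dendritic cell genes 5 of 7, with H2-Aa lower by 3.13 ± 0.16. Of the genes with the largest differences downward, Plet1 was at 74.8, 91.1, 15.0 and 17.1 CPM in monocytes and at 0 in all neutrophils, and Cd209a, a lectin of monocyte-derived dendritic cells, at 11.7, 20.1, 65.02 and 7.41 CPM against 0, 2.14, 0 and 0. The chemokine gene Ccl17 was lower by 5.18 ± 0.31 and Ccl22 by 4.91 ± 0.47. Endothelial genes were higher for 5 of 9 and the myelin gene Mbp by 2.81 ± 0.16. Among barcodes of 500 to 3000 UMIs, 0 of 4 endothelial genes were higher (median -0.42), and the 1 oligodendrocyte marker tested was higher (1.31). The free RNA share was 6.61%, 6.08%, 4.59% and 5.08% in neutrophils and 4.55%, 4.88%, 4.33% and 3.72% in monocytes. It is computed from the same endothelial genes, so it is no separate measure for them. Both cell types were also limited to 1 UMI of Cldn5, Cdh5, Egfl7 and Esam, whatever their depth. The part of free RNA in Mbp was not tested, and for the endothelial genes this share cannot tell it. Siglecf was higher by 4.30 ± 0.39 with Prg2, Epx and Il5ra at 0.

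**Figure D4:**
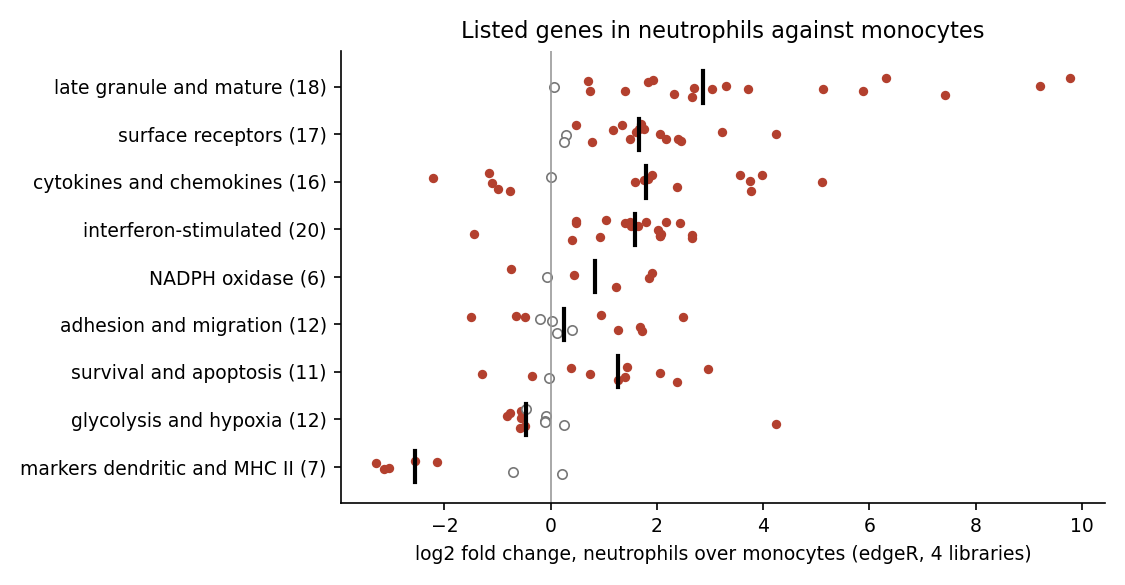
Log2 fold change of neutrophils over monocytes from the edgeR fit over 4 libraries, 1 point per gene of a list (number tested in parentheses), filled where the adjusted p was under 0.05, with black bars for list medians. Late granule and mature genes have a median of 2.87, surface receptors of 1.67, and genes of MHC class II and dendritic cells of -2.55.

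Low-RNA neutrophils, those under the calling threshold, were compared with the others of their library. Only Ang2 Ab (183 low-RNA and 55 higher-RNA cells), Ctrl (134 and 125) and EC-Ang2 (318 and 121) entered the fit, since mIgG1 had 9 higher-RNA cells. By the same edgeR test, 136 of 3228 genes were higher in low-RNA cells (4.21%) and 372 lower (11.5%), 15.7% in either direction. The immature granule genes were lower for 3 of 3, with Ngp at -6.96 ± 0.31, Camp at -6.73 ± 0.37 and Ltf at -2.77 ± 0.31, and 21 of the 25 granule-rich cells lay at or above the threshold. Of the other secondary granule genes, 3 of 6 were lower (Cd177, Chil3 and Mmp8) and 0 higher, with Hp at 0.43 ± 0.16 and Lcn2 at -0.52 ± 0.19 not passing the test, and Prtn3, the 1 primary granule gene measured, was at -0.05 ± 0.43. Monocyte markers were lower for 6 of 6, among them Ccr2 (-4.05 ± 0.35) and Ms4a4c (-4.95 ± 0.28), and MHC class II genes for 4 of 4. Late granule and mature genes were higher for 5 of 17, with Il1r2 at 1.12 ± 0.18 (adjusted p = 8.3e-06) and Hdc at 0.74 ± 0.15, and lower for Ifitm6, Ly6g and S100a6. Cytokines were higher for 2 and lower for 2 of 15, and interferon-stimulated genes higher for 1 of 19. Of the receptors 3 of 17 were higher, namely Trem1 (0.71 ± 0.16), C5ar1 (0.60 ± 0.16) and Ccr1 (0.49 ± 0.16). The counts over all genes depended on the method. Over 10 alternatives each, 1 to 179 genes were higher and 13 to 403 lower, with fewer of both by DESeq2 and without the block.

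Monocyte markers and doublet calls went with the amount of RNA, and their part in this result was not tested. At least 2 UMIs of Ly6c2 and Ccr2 were found in 66.7% of higher-RNA against 5.26% of low-RNA cells in mIgG1, 54.5% against 6.01% in Ang2 Ab, 35.2% against 9.70% in Ctrl and 47.1% against 16.4% in EC-Ang2. Scrublet marked 3, 10, 10 and 14 higher-RNA and 0, 0, 2 and 0 low-RNA cells. Without the barcodes that Scrublet marked or that held UMIs of monocytes, macrophages or microglia past the limits, an alternative added after the first result had been seen, 4 of 1856 genes were higher and 13 lower (228 at an unadjusted p under 0.05), and 8 of these 17 were also among the 508 called before, 6 in the same direction and 2 in the opposite one. This left 15, 64 and 45 higher-RNA cells in Ang2 Ab, Ctrl and EC-Ang2, against 145, 105 and 237 low-RNA cells. The limits are UMI numbers, which cells with more RNA reach more readily, and the part of this in the calls was not tested. Low-RNA cells were then lower in Il1a (-1.20 ± 0.22, adjusted p = 0.000105), Ccl4 (-1.11 ± 0.22), Ccl3 (-0.98 ± 0.22), the chemokine gene Cxcl9 (-1.20 ± 0.24), the cytokine gene Osm (-1.22 ± 0.28), Cybb (-1.07 ± 0.30) and the hexokinase gene Hk2 (-1.06 ± 0.30). Of the 14 cytokines 5 were lower and 1, Ccl5, higher. With all cells, Il1a was at -0.26, Ccl4 at -0.16, Ccl3 at -0.06 and Osm at -0.31, none of them passing, whereas Cybb at -1.06 and Hk2 at -0.60 passed. The calls that turned were Ccl5, at 1.13 ± 0.30 (higher in 2 of 3 libraries) against -0.83 ± 0.21 with all cells, and Cxcl3, at -0.94 ± 0.26 (lower in 2 of 3) against 0.57 ± 0.19. Low-RNA cells were also higher in Sfxn5, a mitochondrial carrier, by 2.20 ± 0.62, which was 1.80 ± 0.31 with all cells. The immature granule call was lost, with Ltf at -0.68 ± 0.40 (adjusted p = 0.497) and Ngp and Camp under the filter on low counts. No surface receptor of 17 and 1 of 16 late granule and mature genes, Wfdc21 (-0.83 ± 0.22), passed.

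Condition pairs were compared by the log2 ratio of CPM among genes found in 10% of the cells of 1 library with at least 50 UMIs in the pair, and a gene is called higher or lower when it was past 1.5-fold. With Ang2 blockade 186 of 1485 genes were higher (12.5%) and 152 lower (10.2%), 22.8% in all, of which 113 and 91 had an interval that left out no change. With Ang2 overexpression 251 of 2423 were higher (10.4%) and 118 lower (4.87%), 15.2% in all, of which 206 and 106 had such an interval. The median over all genes was -0.03 and 0.13 on the log2 scale. These are differences between 2 libraries each and carry no test of the condition.

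Cytokine and chemokine genes were higher in Ang2 Ab than in mIgG1 for 9 of 14 and lower for none, with a median of 0.85. In EC-Ang2 they were higher than in Ctrl for none and lower for 6 of 14, with a median of -0.52. Il1rn, the interleukin 1 receptor antagonist, was at 740, 2133, 3390 and 1830 CPM, a log2 ratio of 1.53 (1.24 to 1.83) with blockade and -0.89 (-0.97 to -0.81) with overexpression. Ccl4 was at 1254, 3676, 5612 and 3721 CPM, with ratios of 1.55 and -0.59. Cxcl10, an attractant of activated T cells, was at 507, 1294, 2317 and 1271 CPM, with ratios of 1.35 and -0.87, and Il1a at 438.5, 906, 1233 and 729 CPM, with 1.05 and -0.76. In all 4 genes mIgG1 was the lowest library and Ctrl the highest. Il1b was at 0.14 (0.03 to 0.24) and -0.10 (-0.15 to -0.06), under 1.5-fold in both pairs. In mIgG1 a single cell held 48.6% of the Cxcl10 UMIs and 23.5% of those of Ccl4.

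Interferon-stimulated genes were higher with blockade for 12 of 17 and lower for none (median 0.69), 10 of them with an interval above 0, and with overexpression higher for none and lower for 3 of 19 (median -0.30). Rsad2, the antiviral viperin, was at 206, 454, 1588 and 750 CPM, with ratios of 1.14 (0.59 to 1.75) and -1.08 (-1.21 to -0.95). Isg15, a ubiquitin-like modifier, was at 2275, 3543, 5158 and 3938 CPM, with ratios of 0.64 and -0.39. Limited to neutrophils under the calling threshold, cytokines were higher for 9 of 14 with blockade and lower for 4 of 14 with overexpression, and interferon-stimulated genes higher for 7 of 17 and lower for none of 19. In these cells 15.2% of the genes measured with all cells were higher with blockade and 9.33% lower with overexpression. Without the cell of each library that held most UMIs of a gene, 10 of 14 cytokines and 13 of 17 interferon-stimulated genes were higher with blockade, where 18.9% of the genes measured with all cells were higher.

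Monocytes of the same libraries gave values in the same directions. In them cytokines were higher for 9 of 14 with blockade (median 0.70) and lower for 4 and higher for 1 of 15 with overexpression (median -0.42), and interferon-stimulated genes higher for 16 of 19 (median 0.90) and lower for 15 of 20 (median -0.75). Over all genes measured in monocytes, 5.47% were higher and 3.38% lower with blockade, and 5.41% and 6.91% with overexpression. Whether the pairs differ more in neutrophils than in monocytes was not tested.

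Mature neutrophil genes were also compared between conditions. Over all genes measured, 12.5% were higher and 10.2% lower with blockade, and 10.4% were higher and 4.87% lower with overexpression. None of 15 late granule and mature genes passed 1.5-fold with blockade (median -0.08), and with overexpression 2 of 16 were lower, Ifitm1 (-0.61) and Ly6g (-1.84, -2.29 to -1.40), and none higher (median -0.22). Ly6g was highest in the cells with 5 or more granule UMIs, at 899 CPM in 13 Ctrl cells and 606 CPM in 5 EC-Ang2 cells. In cells with 0 granule UMIs it was at 100 and 41.6 CPM. The receptor list had 2 genes higher with blockade, Ptafr of platelet-activating factor (0.66) and Csf2rb (0.85), and 1 lower, the retention receptor Cxcr4 (-0.81). With overexpression it had 1 higher, Fpr2 (0.70). Of the secondary granule genes none of 5 passed with blockade, and with overexpression Chil3 (3.85, 3.66 to 4.05) and Mmp8 (0.63) were higher and Cd177 (-0.60) lower. Chil3 was at 1480, 1636, 293 and 4233 CPM in neutrophils and at 3340, 2527, 1199 and 7684 CPM in monocytes, so that Ctrl was the lowest and EC-Ang2 the highest library in both cell types. Survival genes were higher with blockade for Cflar (1.11, 0.30 to 2.04) and Bcl2l11 (1.01, -0.15 to 2.40) of 11, and with overexpression for Bax (0.81).

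The genes with the largest ratios included the acute phase gene Saa3 and marker genes. Saa3 was at 4289, 694, 976 and 4258 CPM, with ratios of -2.63 (-2.83 to -2.43) and 2.12 (2.01 to 2.24), and the single cell with most of its UMIs held 18.8% of them in mIgG1 and 23.5% in Ctrl. AW112010 was at 2898, 1214, 632 and 2514 CPM, with ratios of -1.25 and 1.99, and 1 cell held 35.0% of its UMIs in mIgG1 and 24.0% in Ctrl. Apoe was lower with blockade (5057 against 1326 CPM, -1.93), with 41.5% of its mIgG1 UMIs in 1 cell and 999 CPM expected there from free RNA. With overexpression, Prok2, a chemokine-like ligand made by neutrophils, went from 204 to 40.8 CPM (-2.32) and the coagulation starter F3 from 104 to 30.4 CPM (-1.78). Among genes higher with blockade, Traf1 went from 6.85 to 146 CPM on 1 UMI in mIgG1, a log2 ratio of 4.41 (1.88 to 9.73), and Clec12a, an inhibitory lectin receptor, from 137 to 488 CPM (1.83).

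Marker genes of other cells differed between conditions as well. MHC class II and dendritic cell genes were lower for 3 of 4 with blockade and 4 of 4 with overexpression, and macrophage markers for 4 of 5 and 3 of 5. With overexpression, none of the 4 genes of MHC class II and dendritic cells was lower among cells under the calling threshold, where 1 was higher, or with stricter limits on microglia and macrophage UMIs. Their sums per library are given above, and their part in the other ratios was not tested. With these limits, cytokines were higher for 7 of 14 with blockade and lower for 9 of 14 with overexpression, and interferon-stimulated genes for 6 of 17 and 3 of 19, beside 297 of 1485 and 132 of 2423 (5.45%) of the genes measured with all cells. Angiopoietin and Tie genes were found with 3, 4, 9 and 27 UMIs in neutrophils, where free RNA alone would give 73.5% to 214% of that level. Angpt2 itself was at 18.2 CPM in EC-Ang2.

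**Figure D5:**
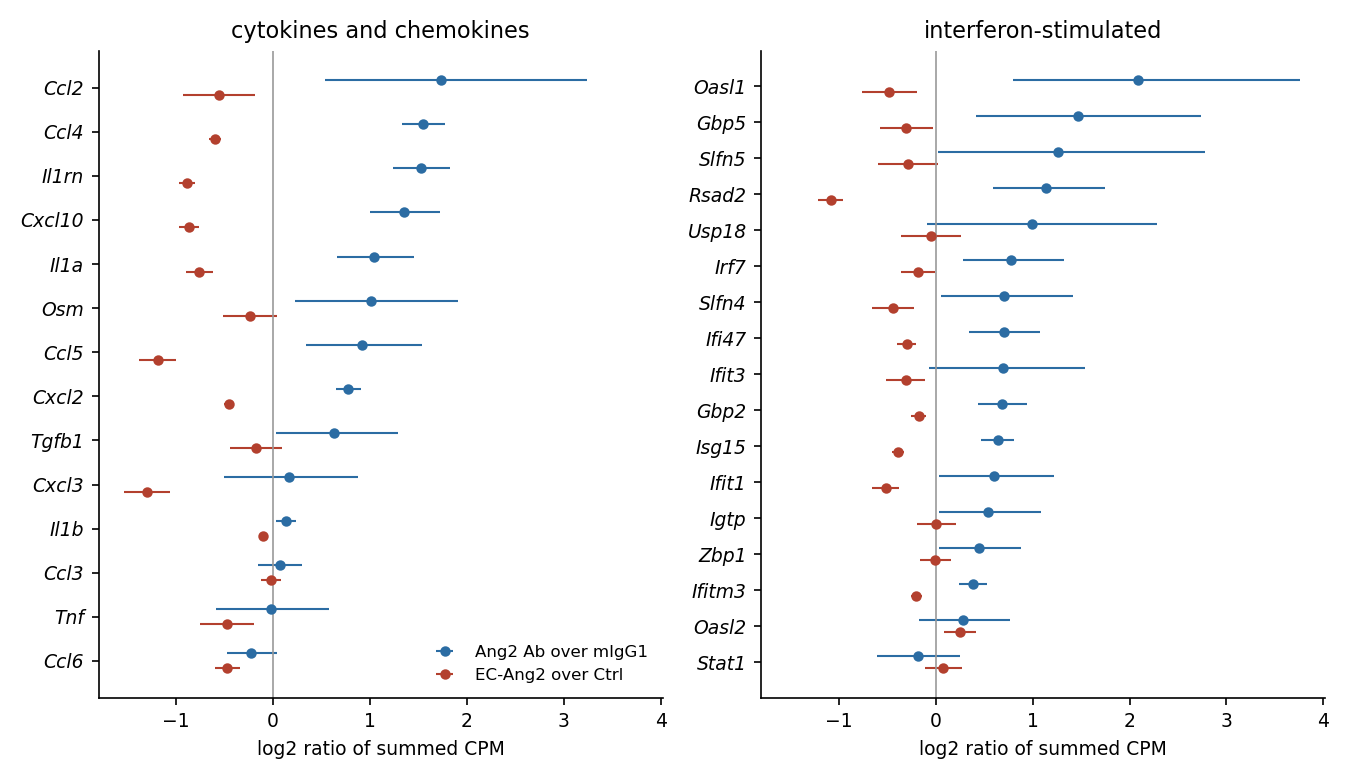
Log2 ratio of summed CPM in neutrophils for genes of the cytokine and chemokine list (left) and the interferon-stimulated list (right) that were measured in both pairs, Ang2 Ab over mIgG1 in blue and EC-Ang2 over Ctrl in red, with exact 95% counting intervals. Il1rn lies at 1.53 and -0.89, and Rsad2 at 1.14 and -1.08.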

How the data were processed

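Per the labels, the submitters used Cell Ranger 2.1.1 with mm10 and Seurat 2.3.4. The deposited matrices hold raw UMI counts per gene and barcode, made by the authors for 4 libraries of 66631583, 57954609, 52084739 and 52796061 UMIs, and barcodes were chosen here by the limits given above. Members and gene lists were chosen with earlier results of these data known. Counts were summed per library and cell type. Levels are CPM of these sums, with exact Poisson or Clopper-Pearson 95% intervals and a floor of 3 counts where a library of a ratio is at 0. Cell types were compared by edgeR 4.0.16 quasi-likelihood tests with TMM factors, the library as a block and Benjamini-Hochberg adjustment (R 4.3.3), after a check on simulated data. DESeq2 1.42.0, other limits, thinning to 500 UMIs, and leaving out libraries or cells were alternatives. Scanpy 1.11.5 ran Scrublet. Genes of the rule and of the lists could be named, and so could the 10 largest and smallest log2 ratios of a pair and the 10 largest differences each way of an edgeR comparison that had the same direction in every library. Calls after barcodes past the limits on monocyte, macrophage and microglia UMIs were left out were named after their values were seen. Reads of near-identical stefin genes cannot be assigned with certainty. Some items are not reported here.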

Additional observations from a re-analysis of the deposited data

Results flagged for a closer look

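Some neutrophil genes lay in opposite directions in the blockade and overexpression pairs. Each pair is 1 library against 1, so the difference between the pairs was not tested. Cytokine and chemokine genes had a median log2 ratio of 0.85 in Ang2 Ab over mIgG1 and -0.52 in EC-Ang2 over Ctrl, and interferon-stimulated genes of 0.69 and -0.30. The pattern was not particular to neutrophils, since in monocytes of the same libraries these medians were 0.70 and -0.42, and 0.90 and -0.75. Saa3 was at -2.63 and 2.12, and AW112010 at -1.25 and 1.99, with 35.0% of the mIgG1 and 24.0% of the Ctrl UMIs of AW112010 in 1 cell. The paper that reported these data also lists Saa3 as inversely regulated in microglia, macrophages and capillary-venous ECs. It lists AW112010 so in microglia and capillary-venous ECs.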

How the results depend on the processing

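Of 218 alternatives over 22 results, 166 kept the direction and the size, 48 moved and 4 reversed. The log2 ratio of Ngp, Ltf and Camp, 3.17 in the blockade pair, was 3.99 with the calling threshold as the minimum, 0.76 with stricter limits on microglia and macrophage UMIs, 1.94 as the mean of each cell's CPM, 1.36 after thinning and -0.74 without cells of 5 or more such UMIs. In the overexpression pair, at -0.14, it was 0.34, 0.42, -0.87, -0.84 and -0.49. The log2 ratio of the share of all barcodes was 2.44 at the calling threshold and 1.88 with the stricter limits for blockade, and 0.32 at the threshold for overexpression. That of immune barcodes was 2.38 and 1.77, and -0.011. Genes higher with blockade numbered 63 at 2-fold, 81 from 100 UMIs and 65 after thinning, and genes lower 26, 54 and 42, with 83 at the threshold, 100 with the stricter limits and 87 without each gene's top cell. With overexpression, higher genes numbered 53, 132 and 72, and lower genes 32 at 2-fold and 44 after thinning.

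Low-RNA cells were higher in 30 and lower in 191 genes by DESeq2, 14 and 183 without the replicate block, 1 and 22 with a split at 1000 UMIs, 4 and 13 without barcodes that Scrublet marked or that held UMIs of monocytes, macrophages or microglia past the limits, and 92 to 179 and 241 to 368 when a library was left out, the 241 being without EC-Ang2. The split at 1000 UMIs also changed which libraries had 10 cells of each class, with 3 low-RNA cells in Ctrl and 18 in mIgG1. Against monocytes, 455 and 554 genes passed among barcodes of 500 to 3000 UMIs, and 1321 to 1860 and 1485 to 2046 without 1 library. The percentage of neutrophils under the threshold was 88.6 for Ang2 Ab, 80.2 for EC-Ang2 and 100 for mIgG1 with the stricter limits, 69.8 for Ang2 Ab with at least 5 marker UMIs, and 84.5, 74.5 and 83.4 for Ang2 Ab, Ctrl and EC-Ang2 with 3000 expected cells. That of cells with granule UMIs was 12.7 for Ang2 Ab at the threshold, and 6.30, 19.3 and 10.7 for Ang2 Ab, Ctrl and EC-Ang2 with all UMIs. Apart from what the settings leave out, the cause was not tested. No paired analysis was possible because each condition had 1 library. This holds for the comparisons between conditions, whereas those within libraries had the library as a block. The cells of 2 or more granule UMIs were not tested against the rest because 2 libraries had 10 cells of each class and 3 were needed. Depth limits mIgG1 most, with 145938 neutrophil UMIs.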

Other observations

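Among 1469 genes measured in both pairs, which share no library, 149 (10.1%) were lower and 182 (12.4%) higher with blockade, and 90 (6.13%) were higher and 59 (4.02%) lower with overexpression. Of these, 20 were lower with blockade and higher with overexpression, among them Id2, Saa3 and Fn1, a gene of the monocyte marker list with 33.3% of its 27 mIgG1 UMIs in 1 cell. In the other direction there were 19, among them Cd274, which codes for PD-L1 (log2 ratios of 1.62, 1.01 to 2.29, and -0.80, -0.97 to -0.63), and Irgm1 (0.92, 0.29 to 1.61, and -0.64, -0.80 to -0.49). In both pairs 13 genes were higher and 15 lower. Counting intervals of both pairs left out 0 for 15 of the 20, 16 of the 19, 4 of the 13 and 11 of the 15 genes. With 1 library per condition none of these counts has a test. In mIgG1, the cell with most UMIs of the gene held 25% of those of Id2, 25% of those of Cd274 and 12.5% of those of Irgm1. Id2, Cd274 and Irgm1 were named after their values were seen.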
